A study of Mus musculus with 68 samples.

Results

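The genes of cytoplasmic dynein, dynactin and the kinesins were selected by gene symbol, as those whose symbol starts with Dync, Dynll, Dynlr, Dynlt, Dctn, Actr1a, Actr1b, Actr10, or with Kif or Klc and a digit. There were 69 such genes among the 36172 genes of the table, of which 9 encode dynactin subunits, 17 dynein chains and 43 kinesin heavy or light chains. The set was chosen with earlier results of these data known, because Actr1a differed strongly between genotypes, and the values of Actr1a are therefore a description. A count in at least 1 cell was found for 62 of the 69 genes, and 7 had none (Dynlt1-ps1, Dynlt1a, Kif22-ps, Kif2c, Kif18b, Kif19a and Kif6).

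Dynein is the motor that carries cargo toward the minus ends of microtubules, which in an axon is toward the cell body, and most kinesins walk the other way. Dynactin is a large complex built on a short filament of the actin-related protein Arp1, and it joins dynein to its cargo and lets the motor move over long distances. Dopamine neurons of the midbrain have long and highly branched axons, so that mitochondria, vesicles and signalling endosomes depend on these motors. The tau protein binds the same microtubules.

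RNA was drawn through the patch pipette from dopamine neurons in ventral tegmental area slices of 12-month-old mice of both sexes, and 68 cells were sequenced (Patch-seq). The 3xTg cells (33) came from mice homozygous for 3 transgenes, the human APP Swe, PS1 M146V and tau P301L, on a mixed background that the methods give as C57BL/6;129×1/SvJ;129S1/Sv (the embryo) and B6;129. The WT cells (35) came from a separate non-transgenic line of that background, so that transgenes and line cannot be told apart. The methods kept cells with RNA of Th, Slc6a3 and Slc18a2 and without RNA of Pvalb, Tmem119, P2ry12 and Aldh1l1. In the deposited counts, 68 of 68 cells had a count of Th, Slc6a3, Slc18a2 and Ddc, which mark dopamine neurons, and 10 cells (5 of each genotype) had a count of Pvalb, Tmem119 or P2ry12. Total counts per cell ranged from 492505 to 1678624. Aldh1l1, the astrocyte marker, was at 0 in every cell.

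The labels name no mouse for a cell, so each genotype is 1 sample, cells are not replicates, and no test between genotypes was made. Every SD is across cells. For each gene, log2(normalized count + 1) was averaged over the cells of a genotype, and the WT average was taken from the 3xTg average to give the genotype difference. A normalized count is the count divided by the size factor of the cell. Because cells with no count weigh heavily in that mean, the log2 ratio of the summed counts of the genotypes (each as CPM, counts per 1000000 counts) is given beside it. Genes were called expressed if no fewer than 80% of the cells of either genotype had a normalized count of 1 or more, which left 3988 genes, among them 32 of the 69 motor genes (9 dynactin, 10 dynein and 13 kinesin genes). Over these 3988 genes the genotype difference had a median of 0.47 and the log2 ratio of sums a median of −0.03, so that a difference of 0.47 is what the middle gene of the table showed. Of the 3988 genes, 1076 passed through the 3xTg cells alone and 164 through the WT cells alone. The expressed genes thus include more that entered by their 3xTg cells than by their WT cells. The cause of this imbalance was not tested. Over the 3121 genes that pass when the filter is applied to all 68 cells at once, the median difference was 0.29 and 18.9% reached 1. Counts and medians over expressed genes below are descriptions. The median number of genes with a count was 8629 per 3xTg cell and 7603 per WT cell.

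Each cell has a label number, and the genotypes alternate along these numbers, from WT 1 to 22 (17 cells), 3xTg 24 to 55 (21 cells), WT 57 to 74 (15 cells) and 3xTg 76 to 92 (12 cells) to WT 94 to 96 (3 cells). A stretch of numbers of 1 genotype is called a run, and what the numbers mark is not stated. The median number of genes with a count was 5367, 7768, 8559, 9428.5 and 6340 in these runs, so that the second long WT run was richer in genes than the first 3xTg run. Values by run are therefore given beside the genotype values.

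Actr1a encodes the main subunit of the Arp1 filament, and its paralog Actr1b encodes a closely related subunit of the same filament. Actr1a lies at chr19:46376814-46395735 on the minus strand and Actr1b at chr1:36699202-36709925 on the minus strand (mm10). Because the paralogs could share reads, the first 90 coding bases of each are shown, with the bases that differ between them in capitals, from the GENCODE M21 transcripts that carry a RefSeq accession:
Actr1a: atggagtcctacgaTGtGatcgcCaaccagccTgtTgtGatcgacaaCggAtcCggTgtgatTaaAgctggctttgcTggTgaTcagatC
Actr1b: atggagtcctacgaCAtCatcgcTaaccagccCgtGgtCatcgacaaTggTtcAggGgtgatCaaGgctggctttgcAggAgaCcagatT
Over the 1128 coding bases of each gene, 241 bases differed (78.6% identical), and the longest identical run was 29 bases. No window of 90 bases of the Actr1a transcript occurred in a transcript of another gene, so that an exact read of that length would not match both.

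Actr1a was higher in 3xTg cells. Its level as log2(normalized count + 1) ran from 0 to 9.11 with a median of 7.67 in 3xTg cells, and from 0 to 9.13 with a median of 0 in WT cells. The ranges overlapped fully, and WT cells were split between those with no count and those with a count, most of which lay near the 3xTg cells. The mean was 6.88 ± 2.43 (SD, n = 33 cells) in 3xTg and 3.30 ± 3.76 (SD, n = 35 cells) in WT, a genotype difference of 3.59, or 3.11 above the median gene. This was the second largest difference of the 3988 expressed genes, a rank that restates the choice of the set. Actr1a entered these genes through the 3xTg cells alone. The summed counts were 8013 in 3xTg (95% Poisson interval 7838.5 to 8190.4) and 3640 in WT (3522.7 to 3760.21), a log2 ratio of 1.03, and 2.31% of the expressed genes had a larger one.

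Much of the genotype difference of Actr1a lay in the number of cells with a count. Such cells were 30 of 33 in 3xTg (90.9%, 95% Clopper-Pearson interval 75.7 to 98.1%) and 17 of 35 in WT (48.6%, 31.4 to 66.01%). Among cells with a count alone, the mean level was 7.57 in 3xTg against 6.79 in WT, which differ by 0.79. Absence of Actr1a RNA from a cell and too little of it to be caught cannot be told apart. The Poisson interval takes every count as an independent draw, and the Clopper-Pearson interval every cell. Neither covers the spread between mice, and the Poisson interval does not cover the spread between cells.

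The runs of label numbers showed the same order. Mean Actr1a levels were 3.29 in WT 1 to 22, 6.44 in 3xTg 24 to 55, 2.98 in WT 57 to 74, 7.66 in 3xTg 76 to 92 and 4.93 in WT 94 to 96. Both 3xTg runs were above every WT run, and the lower 3xTg run lay 3.15 above the higher of the long WT runs. This was the second largest such gap among the expressed genes, a rank that also follows the choice of the set. Cells with a count were 8 of 17, 18 of 21, 7 of 15, 12 of 12 and 2 of 3 in the same order. The long WT runs with medians of 5367 and 8559 genes per cell had Actr1a in 47.1% and 46.7% of their cells. The 3xTg runs with medians of 7768 and 9428.5 had it in 85.7% and 100%. Whether the number of genes per cell had a part in these shares was not tested. With a term for the genes detected in each cell, the genotype difference of Actr1a was 3.03, and without the 10 cells that had a marker of another cell type it was 3.21. The long WT runs differed from each other by −0.31 and the 3xTg runs by 1.22 (the later minus the earlier run in each case).

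**Figure D1:**
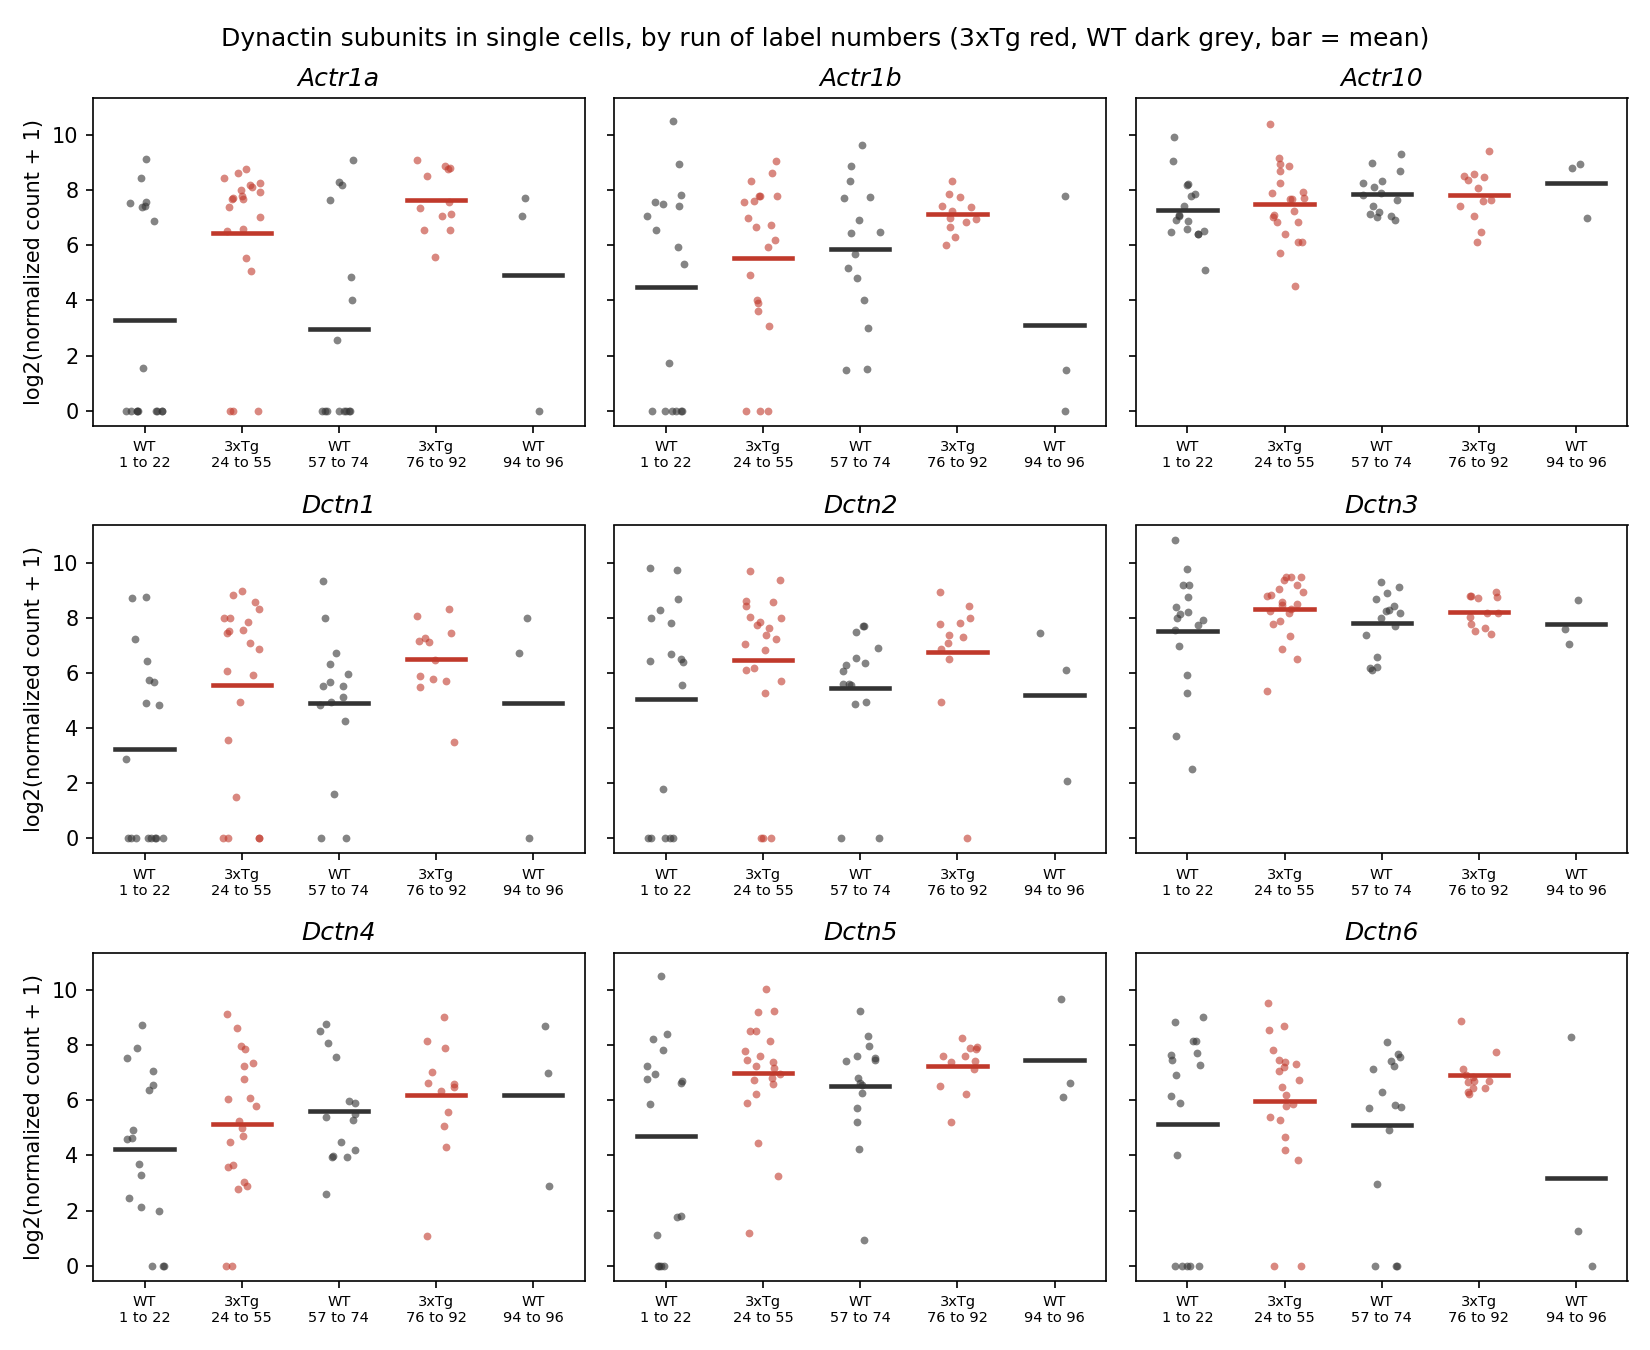
Level of each dynactin subunit in every cell, as log2(normalized count + 1) on the vertical axis, by run of label numbers on the horizontal axis, with a point per cell and a bar at the mean of the run. The means of Actr1a are 6.44 and 7.66 in the 3xTg runs and 3.29, 2.98 and 4.93 in the WT runs, while those of Actr10 lie between 7.29 and 8.25 in all runs.

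Set against its paralog, Actr1a supplied the larger share of the Arp1 filament counts in 3xTg cells and the smaller share in WT cells. Of the summed counts of Actr1a and Actr1b, Actr1a held 61.4% in 3xTg (binomial interval 60.6 to 62.3%) and 39.8% in WT (38.8 to 40.8%). These intervals leave out the spread between cells. Leaving out each WT cell in turn gave 36.9 to 42.9% in WT, which is wider. Per transcript length the shares were 65.2% and 43.8%. By run, the share of Actr1a was 37.8% in WT 1 to 22, 61.4% in 3xTg 24 to 55, 38.3% in WT 57 to 74 and 61.5% in 3xTg 76 to 92. The exception was the run WT 94 to 96, where Actr1a held 64.6% of the counts of 3 cells.

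The same cells can be sorted by which paralog had a count. In 3xTg, 29 cells had both, 1 had Actr1a alone, 1 had Actr1b alone and 2 had neither. In WT, 16 cells had both, 1 had Actr1a alone, 12 had Actr1b alone and 6 had neither. In the run WT 57 to 74, where all 15 cells had Actr1b, 8 of the 15 had no count of Actr1a. Cells with Actr1b and no Actr1a were 4 in WT 1 to 22 and 8 in WT 57 to 74, and 1 in the 3xTg runs together.

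Actr1b itself gave no single direction. Its level ran from 0 to 9.05 with a median of 6.97 in 3xTg cells and from 0 to 10.50 with a median of 5.93 in WT cells. The genotype difference was 1.18, which is 0.70 above the median gene, while its counts summed to 5031 in 3xTg against 5510 in WT, giving a log2 ratio of −0.24. The run WT 57 to 74 (mean 5.86) was above the run 3xTg 24 to 55 (5.55), so that the genotypes overlapped by run.

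The other dynactin subunits differed less than Actr1a. Their median genotype difference was 1.26 over 8 genes and their median log2 ratio of sums 0.07, against 0.47 and −0.03 for all expressed genes. Without Actr1a, for which the set was chosen, a difference of at least 1 was reached by 5 of 8 dynactin genes (Actr1b, Dctn1, Dctn2, Dctn5 and Dctn6), and 27.7% of the expressed genes reached it. Actr1a, Dctn1 and Dctn6 passed the filter through the 3xTg cells alone. With the filter over all cells, Actr1a did not pass. The 7 dynactin genes that passed included 4 with a difference of at least 1, beside the 18.9% above. None of the 9 had a difference of −1 or below, a size reached by 0.527% of the expressed genes. By summed counts Actr1a alone was past a log2 ratio of 1 (2.63% of the expressed genes), and no dynactin gene was at −1 or below (3.81%). Only Actr1a and Dctn2 had both 3xTg runs at least 1 above both long WT runs, which 5.94% of the expressed genes did, and no motor gene showed the reverse (0.176%).

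Dctn1, the large arm subunit that binds both microtubules and the dynein intermediate chains, came second in dynactin. Its level ran from 0 to 8.96 with a median of 7.08 in 3xTg cells and from 0 to 9.32 with a median of 4.95 in WT cells, a genotype difference of 1.81. Its counts summed to 5340 in 3xTg against 2955 in WT (log2 ratio 0.74). The gap between the genotypes was narrower by run than for Actr1a. Mean levels were 3.24 and 4.92 in the long WT runs and 5.57 and 6.52 in the 3xTg runs, and cells with a count were 9 of 17, 13 of 15, 17 of 21 and 12 of 12.

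Dctn2 (dynamitin) and Dctn3 form the shoulder that links the arm to the filament. Dctn2 had a count in 29 of 33 3xTg cells and 28 of 35 WT cells, with a genotype difference of 1.34 and a log2 ratio of sums of 0.45. Its mean levels were 5.04 and 5.44 in the long WT runs against 6.46 and 6.75 in the 3xTg runs. Dctn3 had a count in all 68 cells, with means of 8.28 ± 0.91 (SD, n = 33 cells) in 3xTg and 7.68 ± 1.64 (SD, n = 35 cells) in WT. Its difference of 0.60 was close to the 0.47 of the median gene.

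The cap at the pointed end of the filament is formed by Actr10 (Arp11), Dctn4, Dctn5 and Dctn6, and these genes did not move as a block. Actr10 had a count in every cell and means of 7.61 ± 1.21 (SD, n = 33 cells) in 3xTg and 7.62 ± 1.02 (SD, n = 35 cells) in WT, with a genotype difference of −0.01 and a log2 ratio of sums of −0.11. Dctn4 differed by 0.54 (log2 ratio of sums 0.06). Dctn5 and Dctn6 differed by 1.36 each, but their summed counts were nearly even, with log2 ratios of 0.12 and 0.00. Dctn5 had a count in 13 of 17 cells of the run WT 1 to 22 and in every cell of the other runs, and its mean was 4.70 in that run against 6.53 to 7.48 in the others.

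Genes beside Actr1a on chromosome 19 were also read. Of the expressed genes around it, Gbf1, Psd and Cuedc2 on the lower side differed by 1.04, 0.54 and 1.43, and Sfxn2, 2010012O05Rik and Usmg5 on the higher side by −0.26, 0.71 and 0.11. All 6 were within 1 log2 unit of the median gene. Over the 68 cells, the expressed genes outside the motor set whose levels were most like that of Actr1a by Spearman's rho were Slc25a12 (0.67), Babam1 (0.64), Eif4h (0.60), Cltc (0.58) and Gpbp1 (0.58), and the median expressed gene stood at 0.19. Within WT cells alone these coefficients were 0.51, 0.46, 0.57, 0.57 and 0.55, and within 3xTg cells 0.63, 0.67, 0.58, 0.39 and 0.54. The cells include both genotypes and libraries of different depth, and rho between Actr1a and the number of genes with a count was 0.30. Among dynactin subunits over all cells, Actr1b stood highest (0.46) and Actr10 lowest (−0.01). Within 3xTg cells Actr1b (0.30) was below Dctn5 (0.39) and Dctn4 (0.36), and within WT cells it was at 0.55.

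Dynein genes as a group lay closer to the middle of the table than dynactin. The 10 expressed dynein genes had a median of 0.78 for the genotype difference and of 0.05 for the log2 ratio of sums, and 8 of the 10 were above the median gene. A difference of at least 1 was reached by 3 of the 10 (Dync1i1, Dync1i2 and Dync1li1), against the 27.7% of all expressed genes, and none was past a log2 ratio of sums of 1 in either direction.

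The motor subunit itself was nearly even. Dync1h1, the heavy chain that hydrolyses ATP and walks, had a count in 28 of 33 3xTg cells and 31 of 35 WT cells, with medians of 5.98 and 5.49. Its genotype difference was 0.46, close to the median gene, and its log2 ratio of sums was −0.06.

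The light intermediate chains, which hold the adaptors that bring cargo, differed from each other. Dync1li1 ran from 0 to 9.13 with a median of 6.66 in 3xTg cells and from 0 to 8.32 with a median of 5.21 in WT cells. Its genotype difference of 1.37 was the largest of the expressed dynein genes, and its summed counts were 5057 and 2820, a log2 ratio of 0.73. The mean of the run WT 57 to 74 (5.58) lay just below that of 3xTg 24 to 55 (5.74), while 3xTg 76 to 92 stood at 7.37. Dync1li2 differed by 0.64 with a log2 ratio of sums of 0.12. Dync1li1 held 46.3% of the summed counts of the pair in 3xTg and 35.98% in WT. By run that share was 30.7% and 38.1% in the long WT runs, 42.5% and 49.5% in the 3xTg runs and 86.9% of the counts of the 3 cells WT 94 to 96.

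The intermediate chains, which bind Dctn1, had similar proportions when the cells of each genotype were summed, but not by run. Dync1i1, the form known as neuronal, differed by 1.09 (log2 ratio of sums 0.10), and Dync1i2 by 1.27 (0.21). Dync1i1 held 64.9% of the counts of the pair in 3xTg and 66.5% in WT. Between runs of WT cells the share moved more than between genotypes, from 58.7% in WT 1 to 22 to 73.3% in WT 57 to 74.

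Among the light chains, Dynll1 and Dynlrb1 were abundant and had a count in 68 and 66 of the 68 cells. Dynll1 differed by 0.86 (log2 ratio of sums 0.28), Dynlrb1 by 0.68 (0.01) and the X-linked Dynlt3 by 0.22 (−0.03). Dynll1 held 96.1% of the counts of Dynll1 and Dynll2 in 3xTg and 93.3% in WT. By run the share was 91.8% and 96.1% in the long WT runs and 95.7% and 96.6% in the 3xTg runs, so that the genotypes overlapped. In WT cells 38.5% of the Dynll2 counts came from 1 cell, and without it Dynll1 held 95.3% there.

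The Dynlt1 light chains are copies on chromosome 17 whose counts cannot be assigned to a single gene with confidence. The start of the coding sequence of 2 of them shows why, with the base that differs in capitals:
Dynlt1b: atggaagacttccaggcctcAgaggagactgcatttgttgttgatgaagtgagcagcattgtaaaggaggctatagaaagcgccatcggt
Dynlt1f: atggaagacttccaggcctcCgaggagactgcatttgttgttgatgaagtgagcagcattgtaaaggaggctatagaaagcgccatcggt
Over 339 coding bases a single base differed, and 82.3% of the 90-base windows of the Dynlt1b transcript and 86.8% of those of Dynlt1f occurred in another gene's transcript. Dynlt1b differed by 0.83 (log2 ratio of sums −0.24) and Dynlt1f by 0.73 (−0.31), and these values describe the copies together. Dynlt1a, of whose windows 46.8% occurred elsewhere, had no count.

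Kinesins stood lower than the other motor genes relative to the rest of the table. The 13 expressed kinesin genes had a median of 0.09 for the genotype difference, below the 0.47 of all expressed genes, and 4 of the 13 were above the median gene. The log2 ratio of sums (as CPM) was below 0 for 12 of the 13, with a median of −0.28, and it was above 0 for 47.9% of all expressed genes. None of the 13 reached a difference of 1 in either direction (27.7% and 0.527% of the expressed genes). Kif11 alone was at or below a log2 ratio of sums of −1 (3.81%).

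**Figure D2:**
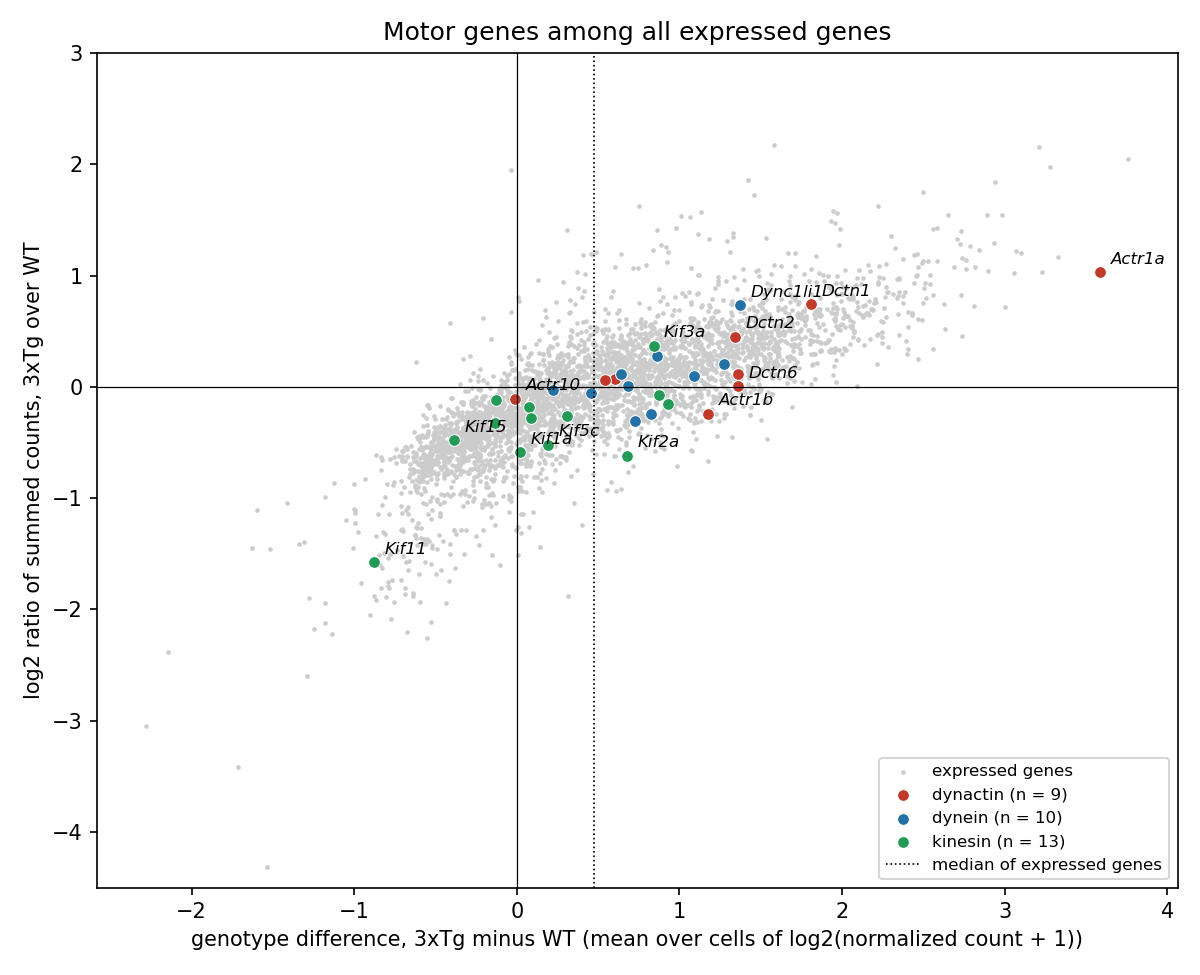
Genotype difference (horizontal axis, mean over cells of log2(normalized count + 1), 3xTg minus WT) against the log2 ratio of summed counts (vertical axis) for the 3988 expressed genes in grey, with 9 dynactin, 10 dynein and 13 kinesin genes in colour and a dotted line at the median gene. Actr1a lies at the right edge at 3.59, and 12 of the 13 kinesin genes lie below 0 on the vertical axis.

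The kinesin-1 genes carry vesicles and mitochondria along axons and were among the even ones by genotype difference. Kif5a, Kif5b and Kif5c, the heavy chains, differed by 0.31, 0.09 and 0.19, with log2 ratios of sums of −0.27, −0.28 and −0.52. In CPM each of them was lower in both 3xTg runs than in every WT run. For Kif5b the values were 330.8 and 317.2 against 365.9, 379.9 and 657.4. For Kif5a they were 185.7 and 141.7 against 194.35, 203.3 and 239.5. For Kif5c, 32.2% of the counts in WT came from 1 cell. Kif5b supplied 51.5% of the counts of the heavy chains in 3xTg and 49.6% in WT. Klc1, the light chain that binds cargo, differed by −0.13, with a count in 31 of 33 3xTg cells and 33 of 35 WT cells and medians of 9.02 and 9.04.

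The mean levels of the kinesin-3 genes Kif1a and Kif1b, which carry synaptic vesicle precursors and mitochondria, did not separate the genotypes by run. Kif1a differed by 0.02, and its counts summed to 7516 in 3xTg against 10477 in WT (log2 ratio −0.59). By summed counts its runs did separate, with 212.7 and 193.2 CPM in the 3xTg runs. In the WT runs it had 278.6, 329.7 and 376.2 CPM. Kif1b differed by 0.93, with medians of 7.22 and 7.35 and a log2 ratio of sums of −0.16. In the run WT 1 to 22, 13 of 17 cells had a count and the mean was 4.57, whereas WT 57 to 74 (7.48) and the 3 cells WT 94 to 96 (9.001) lay above both 3xTg runs (7.38 and 6.70).

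Kif3a, a heavy chain of the kinesin-2 motor, was the only expressed kinesin gene with a log2 ratio of sums (as CPM) above 0. It had a count in all 68 cells and ran from 5.60 to 10.30 in 3xTg cells. Its means were 8.54 ± 1.15 (SD, n = 33 cells) in 3xTg and 7.70 ± 1.63 (SD, n = 35 cells) in WT. They differed by 0.84, and its summed counts were 17064 and 12231, a log2 ratio of 0.37. Both 3xTg runs (8.33 and 8.92) were above both long WT runs (7.81 and 7.48), and the run WT 94 to 96 stood at 8.21. Kif21a, a kinesin-4 motor that slows microtubule growth, differed by 0.88, and Kif2a, a kinesin-13 that takes microtubules apart, by 0.68. Their log2 ratios of sums were −0.07 and −0.62. The genotypes overlapped by run for Kif21a, whose mean in WT 57 to 74 (8.76) was above both 3xTg runs (8.21 and 8.64) and whose mean in WT 1 to 22 was 6.61.

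Kinesins known for cell division (Kif11, Kif15 and Kif14) or centrioles (Kif24) were also counted in these neurons, at low levels. In this order, they had a count in 65, 66, 58 and 62 of the 68 cells, and their summed counts per genotype were between 260 and 1360. Kif11 had the smallest genotype difference of the motor genes that were expressed (−0.88), with medians of 3.75 in 3xTg and 4.05 in WT cells. Its summed counts were 493 and 1360, a log2 ratio of −1.57, with 24.6% of those in WT from 1 cell. The excess was uneven between WT runs, with 25.7 CPM in WT 1 to 22, 60.6 in WT 57 to 74 and 15.6 in WT 94 to 96, against 14.4 and 11.999 in the 3xTg runs. Kif15 differed by −0.39, Kif14 by −0.13 and Kif24 by 0.07.

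**Figure D3:**
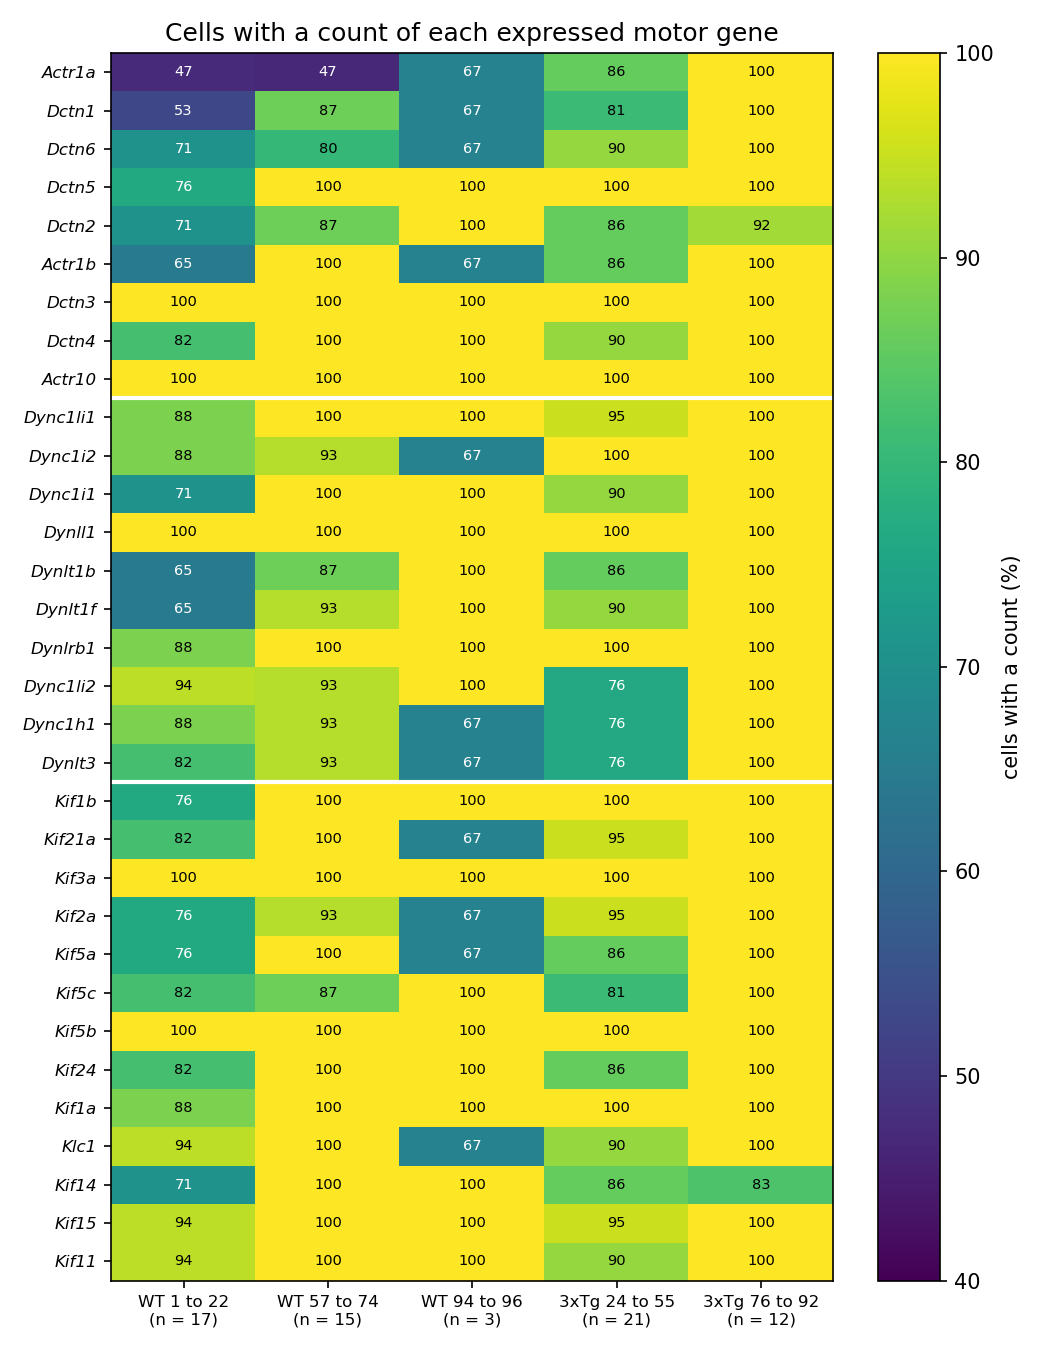
Percent of cells with a count of each expressed motor gene (rows, ordered by genotype difference within dynactin, dynein and kinesin) in each run of label numbers (columns), printed in each field and shown by colour. Actr1a stands at 47% in both long WT runs and at 86% and 100% in the 3xTg runs, while every other gene but Dctn6 (80%) reaches at least 86.7% in the run WT 57 to 74. In the run WT 1 to 22 other genes are low as well, with Dctn1 at 53% and Actr1b, Dynlt1b and Dynlt1f at 65%. Others, such as Dctn3 and Actr10, stand at 100% there.

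Of the 30 motor genes with a count that were not expressed, those found in most cells were Kif1c (54 of 68 cells), Kif3c (53), Dynll2 (46), Dynlt1c (45) and Dync2h1 (41), the last being the heavy chain of the dynein of cilia. Their genotype differences were −0.02, 0.75, 0.33, 0.57 and 0.06. A few others were picked after their values were seen. Kif17, a kinesin-2 motor known from dendrites, had a count in 3 of 33 3xTg cells and 10 of 35 WT cells, with summed counts of 126 and 965. In WT cells 39.2% of its counts came from a single cell. Dync2li1, a light intermediate chain of the ciliary dynein, had a count in 20 3xTg cells and 11 WT cells (summed counts 1372 and 626), and Klc4 in 15 and 7 cells (1274 and 587, with 52.98% of those in WT from 1 cell).

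Levels between genes were compared as CPM per kilobase of transcript, with lengths for 66 of the 69 genes. This takes the reads to lie evenly along the whole transcript, which was not checked. The order of long and short transcripts rests on it, for instance Dync1h1 (14342 bases) and Dynlrb1 (788 bases). Over all cells the highest were Dynlrb1 (510.63), Dctn3 (345.8), Klc1 (228.28), Dynll1 (198.16), Dync1i1 (168.15), Kif3a (131.02), Dynlt1b (130.94, shared with its copies), Dctn5 (117.49), Dynlt3 (112.28) and Dctn6 (102.59). Actr1a stood at 79.2 in 3xTg and 38.8 in WT, and Actr1b at 42.2 and 49.9. In WT cells Actr1a was thus below its paralog per length, and in 3xTg cells above it. The heavy chain Dync1h1 (7.62) was below Dynlrb1, Dynll1 and Dynlt3, light chains of its complex.

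**Figure D4:**
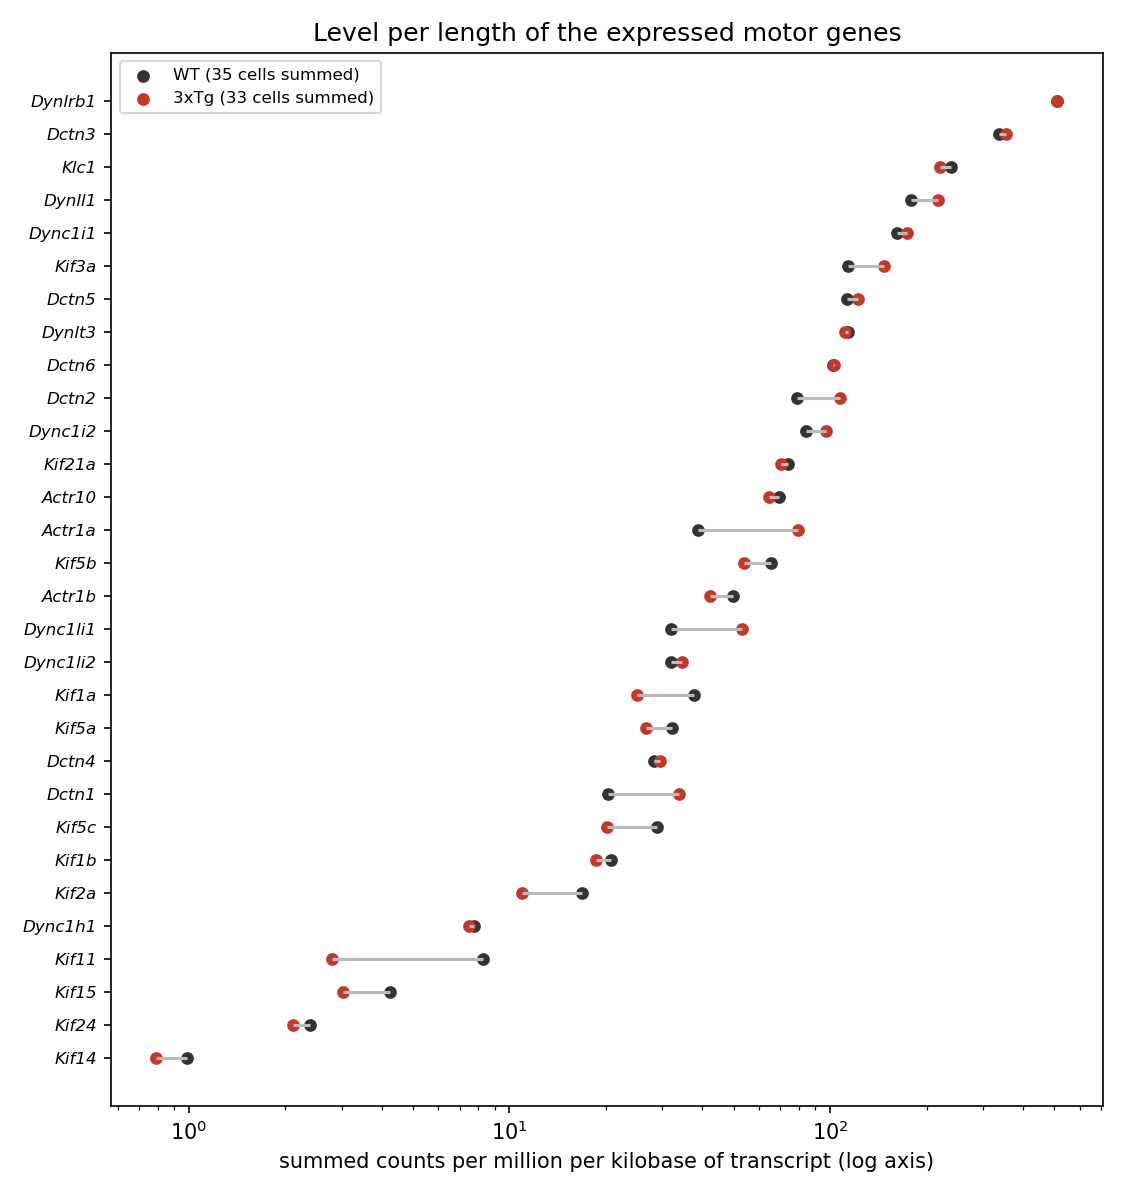
Summed counts as CPM per kilobase of transcript (log axis) of the expressed motor genes in WT (dark points) and 3xTg cells (red points), ordered by their level over all cells, without Dynlt1b and Dynlt1f, whose counts are shared between copies. Actr1a stands at 38.8 in WT and 79.2 in 3xTg, the widest gap among genes above 10.

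Genes that regulate the motors or link them to cargo were taken from a list of 36 genes, of which 33 were in the table and 13 were expressed. Their median genotype difference was 0.95 and their median log2 ratio of sums 0.20, and 10 of the 13 were above the median gene. A difference of at least 1 was reached by 6 of the 13 (Capza1, Capzb, Fez1, Hook3, Ndel1 and Nudc), beside the 27.7% of all expressed genes, and none was past a log2 ratio of sums of 1. Fez1, Hook3, Ndel1, Nudcd3 and Spag9 passed the filter through the 3xTg cells alone. With the filter over all cells, 9 genes of the list passed, with a median of 0.88 and 4 at 1 or more, beside a median of 0.29 and 18.9% over all genes that passed it.

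The largest differences on that list belonged to Capzb (1.87), Ndel1 (1.58), Capza1 (1.48) and Nudc (1.24), with log2 ratios of sums of 0.32, 0.34, 0.50 and 0.36. Capza1 and Capzb encode the capping protein that closes the barbed end of actin filaments and of the Arp1 filament. Capzb had a count in 33 of 33 3xTg cells and 30 of 35 WT cells and was the only expressed gene of the list with both 3xTg runs at least 1 above both long WT runs (5.94% of the expressed genes). Ndel1 and Nudc act with the dynein regulator Lis1. The gene of Lis1, Pafah1b1, differed by 0.33. The smallest differences were those of Madd (−0.29), which links Kif1a and Kif1b to vesicles, and Capza2 (0.28), the other alpha subunit of the capping protein. Of the genes that were not expressed by the rule, Jakmip1 (2.58) and Trak1 (1.80) differed most, with a count in 26 of 33 3xTg cells each and in 17 and 20 of 35 WT cells.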

How the data were processed

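The authors trimmed 5 bases from each read end, aligned them at 90% identity or more to RefSeq transcripts of mm10 (Strand NGS 4.0), removed duplicates and deposited estimated counts per gene, of which 73.8% of the motor genes' values above 0 were not whole (tolerance 0.001). The deposited log2 values, normalized by the authors with DESeq2, were used as an alternative only.

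Size factors were the median of ratios over 787 genes. The genotype difference used a pseudocount of 1. Sums used rounded counts, with exact Poisson and Clopper-Pearson intervals at 95%. These take counts or cells as independent draws and leave out the spread between mice. Calls were past a log2 value of 1. With 1 sample per genotype no test was made. Depth is given in the text above.

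The motor genes and lists were chosen with earlier results of these data known. Named were every dynactin gene, every expressed dynein and kinesin gene, the 10 highest per length, the 5 unexpressed genes found in most cells, those with no count, 4 and 2 genes at the ends of the adaptor list and the 5 genes most like Actr1a. Of the adaptor list, these ends were taken among expressed genes.

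The calculations were tested on simulated data. No excess of cells with no count was simulated, so that the test does not cover genes missing from many cells. Alternatives were CPM, TMM factors (edgeR 4.0.16, R 4.3.3), thinning, pseudocounts, sums, filters, runs, a genes-detected term and leaving out each cell. A filter over all cells together, the gap between runs and the difference between runs of a genotype were added after seeing the data. Python 3.11.15 with numpy 2.4.6, pandas 2.3.3, scipy 1.17.1 and matplotlib 3.10.9 was used. Gene coordinates are those of the table.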

Additional observations from a re-analysis of the deposited data

How the results depend on the processing

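The Actr1a difference of 3.59 was 5.01 with a pseudocount of 0.1, 2.11 with 10, 4.68 in the later runs of label numbers, 1.03 as the log2 ratio of summed counts and 0.79 among cells with a count of Actr1a alone, and it kept its direction in each. Relative to the median gene it ranged from 1.06 to 4.43 over the settings that use all genes. The median of the other dynactin genes (1.26) was 0.65 with a pseudocount of 10. As log2 ratios of sums, the medians were 0.066 for these, 0.054 for dynein and 0.20 for the adaptors. The count of 9 motor genes past 1 (27.7% of all expressed genes) was 14 with a pseudocount of 0.1 (36.3% of all), 3 with 10 (9.90%), 1 by sums (2.63%) and 5 with a term for genes detected per cell (15.8%). Actr1b reversed by sums (−0.24). The share of Actr1a in the counts of both paralogs was 63.5% in 3xTg without cells that had a marker of another cell type. In WT it was 42.2% in thinned cells (700471 counts each, leaving out 2 3xTg and 5 WT cells), 37.8% in the earlier and 38.3% in the later long run. Leaving out each cell in turn gave 3.49 to 3.80 for Actr1a, 1.11 to 1.35 for the other dynactin genes, 0.65 to 0.90 for dynein, 0.02 to 0.22 for kinesins, 0.81 to 1.15 for adaptors, 8 to 11 motor genes past 1, and shares of 60.3 to 62.9% in 3xTg and 36.9 to 42.9% in WT. Of 341 alternatives for single motor genes, 43 moved the value by over 1.5-fold, and 1 turned the sign of a difference that was past 1. Smaller differences turned as well, and for 13 of the 32 expressed motor genes the log2 ratio of sums had the opposite sign to the genotype difference. With the filter applied to all cells together, chosen after seeing the data, 7 motor genes were past 1 (18.9% of all), and the medians were 1.18 for dynactin without Actr1a, 0.78 for dynein, 0.14 for kinesins and 0.88 for adaptors. The cause of these shifts was not tested, beyond the weight that a pseudocount or a sum gives to cells with no count. No paired analysis was possible because the genotypes share no label numbers and the result comes from no test.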
